A study of Mus musculus with 27 samples.

Results

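The 10 neuropeptide genes described here are Penk, Pdyn, Tac1, Npy, Sst, Vip, Cck, Cartpt, Crh and Cort, chosen by name as peptides of projection neurons and interneurons, out of 52636 gene identifiers in the count tables. Each of the 10 symbols matched 1 Ensembl identifier in both tables. RNA sequencing had been run on frontal cortex and striatum of mice in which an intergenic DNA fragment between H19 and Igf2 was deleted, to see how the loss of this enhancer alters brain transcriptomes. All mice were of the 129S1 background and about 2.5 months old. Frontal cortex came from 6 wild-type mice (3 females, 3 males) and 6 homozygous Igf2enh-/- mice (3 females, 3 males). Striatum came from 7 wild-type mice (3 females, 4 males) and 8 Igf2enh-/- mice (4 females, 4 males). The deletion is germline, so every cell type carries it, along with 1 residual loxP site from the targeting (Hprt-CRE). Total counts per library ran from 23686945 to 33926904. Levels are CPM, counts scaled to library size after trimmed mean of M-values (TMM) normalization over all 27 libraries, and libraries are called by the number that opens their label.

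Neuropeptides are cut from longer precursor proteins inside dense core vesicles and act on G protein-coupled receptors, usually released beside a fast transmitter. In the striatum the medium spiny projection neurons fall into an indirect pathway class that makes enkephalin (from Penk) and a direct pathway class that makes substance P (from Tac1) and dynorphin (from Pdyn). In the cortex the peptides mark classes of GABAergic interneurons: Sst, Npy and Cort in overlapping somatostatin cells, Vip and Crh in other interneurons, and Cck both in interneurons and in many pyramidal cells.

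The dissections were checked with cell type markers. Slc17a7, the vesicular glutamate transporter of cortical projection neurons, ran from 1488 to 1691 CPM in frontal cortex, and Drd2, the D2 dopamine receptor, from 134 to 433 CPM in striatum against 0.654 to 1.65 CPM in frontal cortex. All 13 medium spiny neuron markers were called higher and all 12 cortical projection neuron markers lower in striatum. Of all genes tested in wild-type mice, 33.9% were called higher and 33.6% lower. Genes were tested at a mean of 1 CPM over all libraries. A gene such as Isl1, at 0 CPM in wild-type frontal cortex and 17.9 CPM in striatum, could pass only through striatum. These counts are therefore a description. The striatal libraries differed widely among themselves in the cortical list, whose summed level ran from 66.8 CPM in library 22 to 1336 CPM in library 20, both wild-type, with none of the 12 genes at 0 in any group. In frontal cortex the same sum ran from 2507 to 2757 CPM. Library 20 also held the highest summed level of the 9 oligodendrocyte markers among striatal libraries, 10557 CPM, followed by library 22 with 9283 CPM, and the lowest was 4849 CPM. Library 15, from an Igf2enh-/- female, held 3055 CPM of Ttr, a choroid plexus gene, and its 13 choroid plexus markers summed to 4657 CPM. Among frontal cortex libraries, library 1, from an Igf2enh-/- female, stood apart. It held the lowest sums of oligodendrocyte (988 CPM), medium spiny neuron (152 CPM) and choroid plexus markers (172 CPM). Wild-type cortical libraries held at least 1593, 194 and 231 CPM of these. Its sum of meningeal fibroblast markers, 159 CPM, was the highest. Numbers of calls, some correlations, and the striatal genotype changes of Penk, Pdyn and Tac1 are also given without libraries 15, 20 and 22.

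**Figure D1:**
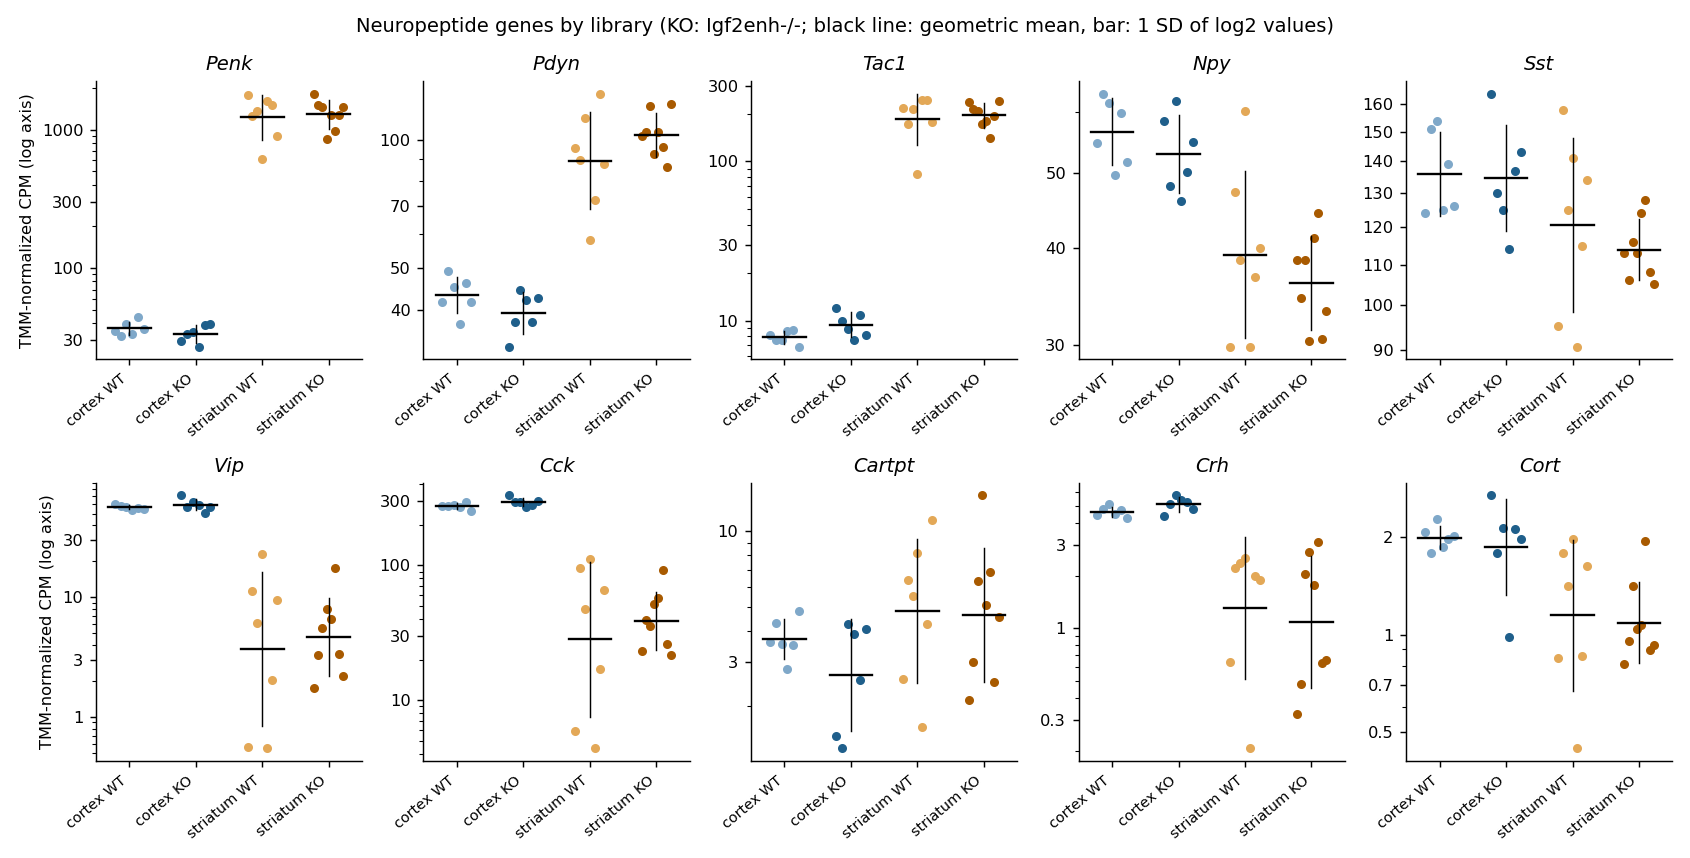
TMM-normalized CPM (log axis) of the 10 neuropeptide genes in each library of frontal cortex and striatum, wild-type (WT) and Igf2enh-/- (KO), with the geometric mean and 1 SD of the log2 values of each group in black. Penk, Pdyn and Tac1 sit higher in striatum in every library, Vip, Cck and Crh sit lower in every library, and Vip and Cck spread widely among striatal libraries.

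Levels of different genes were compared per kilobase of exon, with exon lengths from the GENCODE vM1 annotation. In wild-type frontal cortex the order ran from Cck, at 325 ± 16.5 CPM per kb (SD, n = 6), through Sst (228 ± 22.9), Npy (100 ± 9.82), Vip (37 ± 1.49), Penk (22.5 ± 2.66), Pdyn (15.1 ± 1.47) and Tac1 (7.63 ± 0.695) to Cartpt (4.31 ± 0.79), Crh (3.51 ± 0.234) and Cort (2.95 ± 0.25). Ranges over the 6 libraries did not overlap between neighbours in that order down to Cartpt, while Cartpt and Crh overlapped, as did Crh and Cort. In wild-type striatum the order per kb was Penk (792 ± 253 CPM per kb, SD, n = 7), Sst (205 ± 40.6), Tac1 (187 ± 54), Npy (71.3 ± 18.7), Cck (58.6 ± 51.1), Pdyn (31.8 ± 8.08), Cartpt (6.49 ± 3.74), Vip (4.95 ± 5.22), Cort (1.89 ± 0.835) and Crh (1.28 ± 0.68). There Penk stood above Sst and Pdyn above Cartpt without overlap, and the ranges of all other neighbours overlapped.

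The peptides of medium spiny neurons come first. Penk (ENSMUSG00000045573; GRCm38 chromosome 4, 4133536 to 4138815) encodes proenkephalin, and Pdyn (ENSMUSG00000027400; chromosome 2, 129686549 to 129699938) encodes prodynorphin. Proenkephalin carries several copies of the opioid core, the amino acids tyrosine, glycine, glycine and phenylalanine that open every enkephalin. In the coding sequence of GENCODE vM1 the codons of this core occurred in frame 7 times in the 807 coding bases of Penk. The core and its flanks in 3 of the copies, which show how alike the repeats within the gene are, read as follows from coding bases 283, 676 and 769, with the core codons in capitals.
Penk copy 1: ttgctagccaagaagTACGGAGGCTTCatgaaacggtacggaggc
Penk copy 6: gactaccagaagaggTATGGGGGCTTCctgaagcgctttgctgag
Penk copy 7: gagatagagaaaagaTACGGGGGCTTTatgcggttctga
The longest run of identical bases in the transcripts of Penk and Pdyn was 15, well under the 75 bases of a read. An annotated noncoding gene on the opposite strand, A830012C17Rik, overlaps Penk, and it held 0 to 4 counts in frontal cortex and 6 to 21 in striatum, where Penk held 15589 to 46921.

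Penk was the member with the largest difference between regions. In wild-type frontal cortex it ran from 32.4 to 44.1 CPM (median 35.6, n = 6) and in wild-type striatum from 613 to 1792 CPM (median 1373, n = 7). Penk in Igf2enh-/- mice ran from 27.1 to 39.3 CPM (median 33.9, n = 6) and from 854 to 1819 CPM (median 1367, n = 8). No library of either region reached the range of the other. In bulk tissue a higher share of cells that make a peptide and more of its RNA per cell cannot be told apart. The log2 fold change, striatum over frontal cortex, was 5.14 in wild-type mice (SE 0.219, 35.2-fold, adjusted p = 1.31e-15 by the quasi-likelihood test of edgeR) and 5.28 in Igf2enh-/- mice (SE 0.22, edgeR adjusted p = 7.77e-16).

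Tac1 (ENSMUSG00000061762; chromosome 6, 7555061 to 7562978), the precursor of substance P and neurokinin A, ran from 6.87 to 8.7 CPM (median 7.81) in wild-type frontal cortex and from 83.5 to 244 CPM (median 214) in wild-type striatum. Ranges in Igf2enh-/- mice were 7.54 to 12 CPM (median 9.45) and 141 to 241 CPM (median 200). All striatal libraries lay above all cortical ones. The log2 fold changes were 4.62 (SE 0.2, 24.6-fold, edgeR adjusted p = 1.52e-15) and 4.37 (SE 0.195, edgeR adjusted p = 2.31e-15).

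Pdyn ran from 37.1 to 49.2 CPM (median 43.5) in wild-type frontal cortex and from 58.2 to 128 CPM (median 89.6) in wild-type striatum, and in Igf2enh-/- mice from 32.8 to 44.4 CPM (median 39.9) and 86.4 to 121 CPM (median 103). The regions did not overlap here either, but the gap was far smaller than for Penk and Tac1, with log2 fold changes of 1.08 (SE 0.128, edgeR adjusted p = 6.49e-08) and 1.39 (SE 0.127, edgeR adjusted p = 7.38e-10). Within a library there were 1.04 to 1.52 Pdyn counts per Penk count in wild-type frontal cortex and 0.0449 to 0.0976 in wild-type striatum, a ratio of counts that does not correct for the longer exons of Pdyn.

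In the somatostatin group of interneuron peptides Npy and Cort were lower in striatum, and Sst was called only in Igf2enh-/- mice, without a called difference between the genotypes. Sst (ENSMUSG00000004366; chromosome 16, 23889573 to 23891342) encodes somatostatin, an inhibitor of hormone and transmitter release, and Cort (ENSMUSG00000028971; chromosome 4, 149125034 to 149126763) encodes cortistatin, which binds the same receptors. Both share the phenylalanine, tryptophan, lysine and threonine core with which these peptides contact their receptors. Its codons were found once in frame in each gene and in none of the other 8, and they are shown in capitals near the end of each coding sequence, from base 310 of Sst and base 286 of Cort, because the likeness of the peptides bears on whether the counts are separate.
Sst: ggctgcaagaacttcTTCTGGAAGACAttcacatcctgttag
Cort: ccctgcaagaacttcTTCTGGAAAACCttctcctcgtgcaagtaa
The longest identical run in the transcripts of Sst and Cort was 21 bases, the longest of any pair of members and shorter than a read.

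Sst ran from 124 to 154 CPM (median 133) in wild-type frontal cortex and from 90.8 to 158 CPM (median 125) in wild-type striatum, and the ranges overlapped. Among Igf2enh-/- mice it ran from 114 to 164 CPM (median 133) and from 105 to 128 CPM (median 113), again with overlap. The log2 fold change in wild-type mice was -0.15 (95% confidence interval -0.36 to 0.06, edgeR adjusted p = 0.197). In Igf2enh-/- mice it fell by 0.24 on the log2 scale (interval -0.45 to -0.04, edgeR adjusted p = 0.0325), but leaving out library 1, 9, 11, 15, 25 or 27 gave adjusted p from 0.0554 to 0.109 and scaling by total count gave 0.0687. The difference between these genotype-specific changes was -0.09 (interval -0.39 to 0.20, edgeR adjusted p = 0.999).

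Npy (ENSMUSG00000029819; chromosome 6, 49822710 to 49829507), the precursor of neuropeptide Y, ran from 49.7 to 63.3 CPM (median 57.2) in wild-type frontal cortex and from 29.9 to 60.1 CPM (median 38.7) in wild-type striatum, where library 20 alone lay inside the cortical range. The Igf2enh-/- ranges of 46 to 62 CPM (median 52.5) and 30.4 to 44.4 CPM (median 36.5) did not overlap. Npy was lower in striatum, with log2 fold changes of -0.49 (SE 0.128, edgeR adjusted p = 0.00155) and -0.55 (SE 0.124, edgeR adjusted p = 0.000372).

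Cort was the weakest member of this group, at 1.79 to 2.27 CPM (median 2) in wild-type frontal cortex and 0.446 to 1.97 CPM (median 1.41) in wild-type striatum, or 13 to 56 counts. Cort in Igf2enh-/- mice was at 0.985 to 2.69 CPM (median 2.04) and 0.812 to 1.95 CPM (median 0.999). The log2 fold changes were -0.65 (SE 0.254, edgeR adjusted p = 0.0275) and -0.76 (SE 0.248, edgeR adjusted p = 0.0085). The call in wild-type mice was lost without library 6, 14, 22 or 24, with adjusted p from 0.0506 to 0.0624.

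The remaining peptides of cortical cells were lower in striatum, with a large spread. Vip (ENSMUSG00000019772; chromosome 10, 5639193 to 5647617), vasoactive intestinal peptide, ran from 53.9 to 60.2 CPM (median 56.3) in wild-type frontal cortex and from 0.548 to 22.8 CPM (median 6.15) in wild-type striatum. Ranges in Igf2enh-/- mice were 50.9 to 71 CPM (median 58.1) and 1.75 to 17.5 CPM (median 4.44). The regions did not overlap, and Vip was lower in striatum, with log2 fold changes of -2.97 in wild-type (7.85-fold, SE 0.512, edgeR adjusted p = 1.54e-05) and -3.36 in Igf2enh-/- mice (10.3-fold, SE 0.497, edgeR adjusted p = 1.68e-06).

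Cck (ENSMUSG00000032532; chromosome 9, 121489824 to 121495694), the precursor of cholecystokinin, ran from 252 to 294 CPM (median 277) in wild-type frontal cortex and from 4.39 to 111 CPM (median 47.5) in wild-type striatum. In Igf2enh-/- mice the ranges were 271 to 331 CPM (median 296) and 21.8 to 91.7 CPM (median 37.4). Cck had the highest cortical level per kb of the 10 genes and did not overlap between regions, with log2 fold changes of -2.49 (SE 0.49, edgeR adjusted p = 8.2e-05) and -2.80 (SE 0.474, edgeR adjusted p = 1.1e-05).

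Crh (ENSMUSG00000049796; chromosome 3, 19693401 to 19695396), corticotropin-releasing hormone, ran from 4.26 to 5.11 CPM (median 4.61) in wild-type frontal cortex and from 0.206 to 2.52 CPM (median 1.99) in wild-type striatum, which is 6 to 67 counts. Noncoding genes of RefSeq overlap both Cck (Gm38661) and Crh (Gm42189), and without the strand setting of the counting their reads cannot be told apart from those of the peptide genes. In Igf2enh-/- mice it ran from 4.37 to 5.76 CPM (median 5.2) and from 0.325 to 3.12 CPM (median 1.21). The regions did not overlap, and the log2 fold changes were -1.48 (SE 0.386, edgeR adjusted p = 0.00153) and -1.83 (SE 0.374, edgeR adjusted p = 0.000119).

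Cartpt (ENSMUSG00000021647; chromosome 13, 99898483 to 99910179), which encodes the CART peptide of feeding and reward circuits, went the other way. It ran from 2.83 to 4.81 CPM (median 3.58) in wild-type frontal cortex and from 1.65 to 11.1 CPM (median 5.52) in wild-type striatum, and in Igf2enh-/- mice from 1.36 to 4.27 CPM (median 3.22) and 2.11 to 13.9 CPM (median 4.8). All these ranges overlapped. The log2 fold change was 0.52 in wild-type mice (interval -0.26 to 1.31, edgeR adjusted p = 0.227) and 0.87 in Igf2enh-/- mice (interval 0.09 to 1.65, edgeR adjusted p = 0.0439), and the latter call was lost when library 1, 3, 7, 9, 11, 17, 19 or 23 was left out, with adjusted p from 0.0531 to 0.138.

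In all, 8 of the 10 members passed an adjusted p of 0.05 between regions in wild-type mice, 3 higher and 5 lower in striatum. Regions differ in most genes, so this count stands beside a background of 67.5% of the 14909 genes tested, 33.9% higher and 33.6% lower. In Igf2enh-/- mice all 10 passed, 4 higher and 6 lower, where 68.9% of genes did (34.2% higher and 34.7% lower). Without libraries 15, 20 and 22 the numbers of members called remained 8 and 10. The change between regions was not called different between the genotypes for any member by the interaction term of edgeR (0 of 10 also by its likelihood ratio test and by DESeq2), with 0 of 10 at an unadjusted p under 0.05, 0% of all genes called and 433 genes at an unadjusted p under 0.05. The largest interaction by p was that of Pdyn, 0.30 (interval -0.06 to 0.67). Libraries were treated as independent in these fits, since nothing in the labels ties a cortical library to a striatal library of the same mouse.

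**Figure D2:**
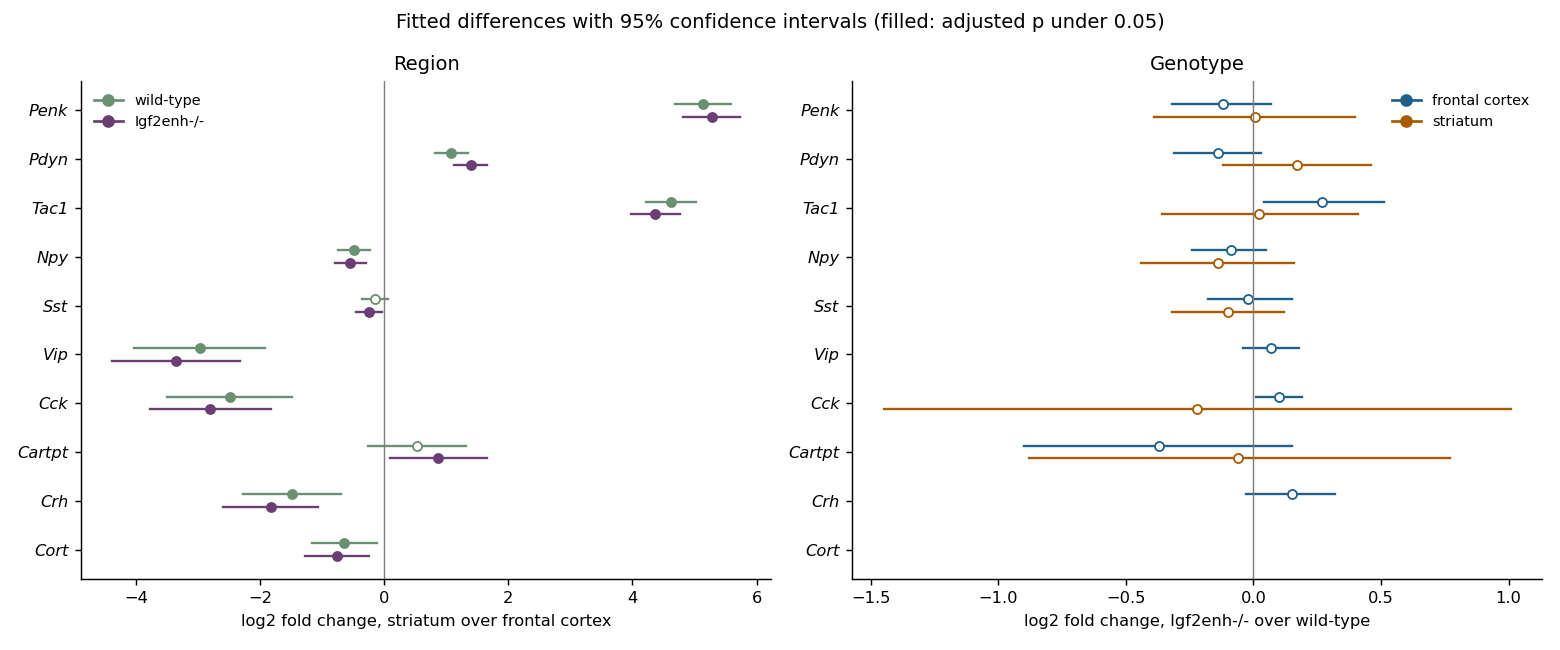
Fitted log2 fold changes of the neuropeptide genes with 95% confidence intervals, on the left striatum over frontal cortex in wild-type and Igf2enh-/- mice, on the right Igf2enh-/- over wild-type in each region. Filled points passed an adjusted p of 0.05 in edgeR. Region changes run from -3.36 for Vip to 5.28 for Penk, and all genotype points on the right are open.

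The question the mice were made for is the effect of the enhancer deletion, and no member was called for it. In frontal cortex 0 of the 9 members tested passed (0.38% of the 13936 genes did), and in striatum 0 of the 7 tested (0.036% of 13875 genes). The likelihood ratio test of edgeR, DESeq2 and limma-voom also called 0 members in both regions. Over all genes these tests called 1.66%, 1.77% and 0.416% in frontal cortex and 0.404%, 0.807% and 0.0216% in striatum. A gene was tested where all libraries of the region held 1 CPM or more, which left out Cort in frontal cortex and Vip, Crh and Cort in striatum.

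In frontal cortex 2 of the 9, Tac1 and Cck, had an unadjusted p under 0.05, as did 13.5% of all genes tested there. Tac1 was at 7.89 ± 0.719 CPM in wild-type and 9.56 ± 1.71 CPM in Igf2enh-/- mice (SD, n = 6 each), and 4 of the 6 Igf2enh-/- libraries exceeded the wild-type range. Its log2 fold change was 0.27 (interval 0.04 to 0.51, edgeR adjusted p = 0.282). Cck was at 275 ± 14 and 296 ± 20.5 CPM, a log2 fold change of 0.10 (interval 0.01 to 0.19, edgeR adjusted p = 0.339), also with 4 of 6 libraries above the wild-type range. For 6 of the 7 other members tested the intervals lay within 0.32 of 0 on the log2 scale: Pdyn from -0.31 to 0.03, Crh from -0.03 to 0.32 (4 of 6 libraries above the wild-type range), Penk from -0.32 to 0.07, Npy from -0.24 to 0.05, Vip from -0.04 to 0.18 and Sst from -0.18 to 0.15. Cartpt was less certain, at 3.76 ± 0.69 and 2.94 ± 1.31 CPM, with an interval from -0.90 to 0.15. Libraries 1 and 3, both Igf2enh-/- females, held the lowest Cartpt levels there. Library 1 also held the highest cortical levels of Tac1 (12 CPM) and Cck (331 CPM). Without it their log2 fold changes were 0.20 and 0.07. The part of its tissue makeup in these values was not tested.

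In striatum the level of Penk was 1295 ± 413 CPM in wild-type (SD, n = 7) and 1326 ± 305 CPM in Igf2enh-/- mice (SD, n = 8), with an interval of the log2 fold change from -0.39 to 0.40. Tac1 was at 193 ± 55.8 and 198 ± 33.6 CPM (interval -0.36 to 0.41), and Pdyn at 91.9 ± 23.3 and 103 ± 12.3 CPM (interval -0.12 to 0.46). Sst was the most closely bounded, at 123 ± 24.3 and 114 ± 8.33 CPM (interval -0.32 to 0.12). Npy had an interval from -0.44 to 0.16, Cartpt from -0.88 to 0.77 and Cck from -1.45 to 1.01. None of the 7 had an unadjusted p under 0.05, where 10% of all genes tested in striatum did.

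The members under the filter were compared by an exact two-sided permutation test on log2(CPM + 0.5). Cort in frontal cortex differed by -0.06 between genotypes (p = 0.779, exact), and in striatum Vip differed by 0.15 (p = 0.832, exact), Crh by -0.20 (p = 0.626, exact) and Cort by -0.08 (p = 0.713, exact). The adjusted p over these 4 tests was 0.832 for each. Vip held at least 1 CPM in 13 of the 15 striatal libraries, Crh in 9 and Cort in 8.

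Ratios of 2 members within a library do not depend on its scaling. Tac1 counts per Penk count in frontal cortex ran from 0.19 to 0.257 in wild-type and from 0.206 to 0.405 in Igf2enh-/- mice. The mean log2 ratio was 0.39 higher in Igf2enh-/- mice (exact two-sided permutation p = 0.026, adjusted p = 0.208 over 8 ratios, n = 6 each), and library 1 held the highest value. In striatum the same ratio differed by 0.01 (exact permutation p = 0.909). Differences of the log2 ratio of Sst to Npy were 0.08 in frontal cortex and 0.04 in striatum, and those of Pdyn to Penk -0.01 and 0.13. The ratio of Sst to Vip differed by -0.09 in frontal cortex and by -0.41 in striatum, where it ran from 6.17 to 169 in wild-type mice alone. The adjusted p of all these was 0.914 or more by the exact permutation test.

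**Figure D3:**
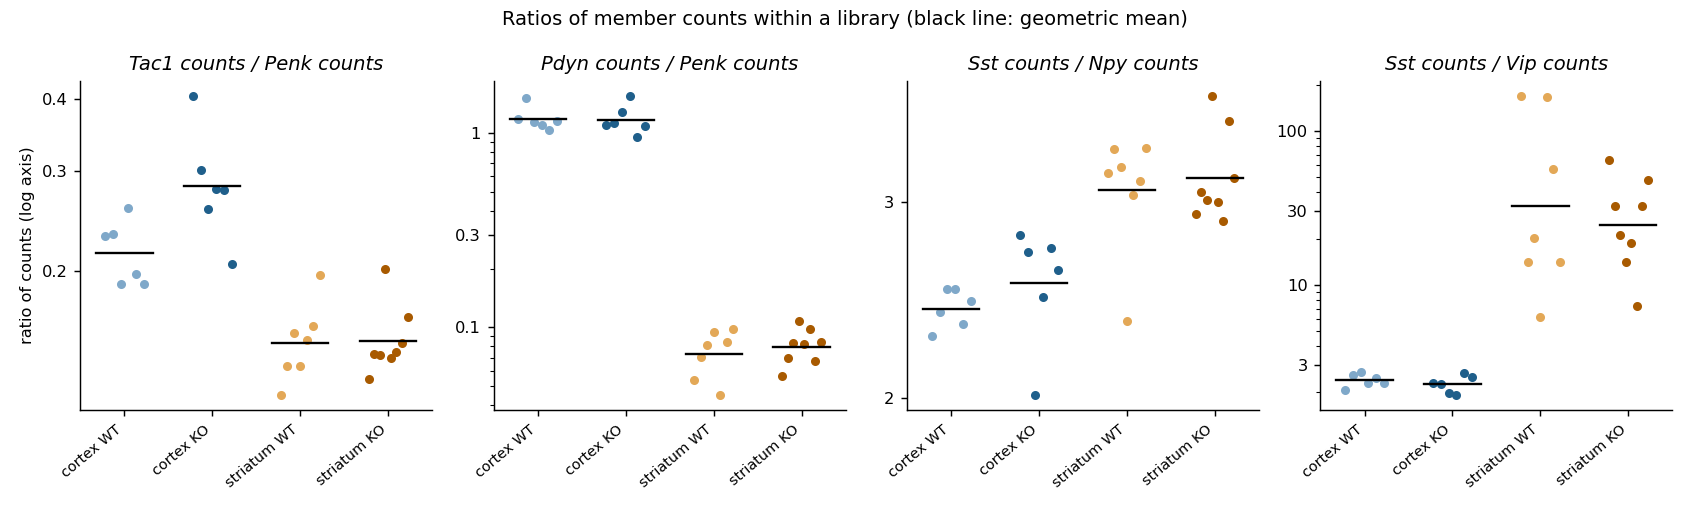
Ratio of the counts of 2 neuropeptide genes within each library (log axis) for the 4 groups, with the geometric mean as a black line. Tac1 over Penk reaches 0.405 in Igf2enh-/- frontal cortex against at most 0.257 in wild-type, and Sst over Vip spreads from 6.17 to 169 among wild-type striatal libraries.

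Sex was a term of the same fits. In frontal cortex 0 of 9 members passed (0.0431% of all genes did), with Vip at a male over female log2 difference of -0.14 (interval -0.25 to -0.04, edgeR adjusted p = 0.566) and Npy at -0.16 (interval -0.30 to -0.01, edgeR adjusted p = 0.643) the only ones with an unadjusted p under 0.05. Such a p was held by 1054 of the 13936 genes tested there. In striatum 0 of 7 passed (0.0432% of genes), and Penk, at -0.38 (interval -0.78 to 0.01), had the smallest p. In the same contrast all 13 medium spiny neuron markers were below 0 (median -0.33) and all 6 cortical projection neuron markers tested were above 0 (median 0.63), with 0 called, and their part in the Penk value was not tested. The genotype by sex term passed for 0 of 9 members in frontal cortex (0.0215% of genes, with 887 at an unadjusted p under 0.05) and 0 of 7 in striatum (0% of genes, with 355 at an unadjusted p under 0.05), and 0 members had an unadjusted p under 0.05 in either.

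The spread between libraries set these limits. In frontal cortex the residual SD after removing genotype and sex was between 0.08 (Cck) and 0.26 (Cort) on the log2 scale for 9 members, against a median of 0.10 over tested genes, and 0.46 for Cartpt, above 99.6% of them. In striatum, where the median was 0.13, it was 0.22 for Sst, 0.29 for Npy and Pdyn, 0.40 for Penk and 0.41 for Tac1. It was 0.42 for Cort, 0.79 for Cartpt, 0.82 for Crh and 1.41 for both Vip and Cck. Vip and Cck were thus more variable than 99.9% of the genes tested in striatum, Crh than 99.5% and Cartpt than 99.4%. Cort (96.2%), Tac1 (95.9%) and Penk (95.6%) also lay above most genes.

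The striatal spread followed the cortical markers, a relation looked for after the values had been seen. Library 22 held 0.548 CPM of Vip and 4.39 CPM of Cck with 13.7 CPM of Slc17a7, and library 14 held 0.565 and 5.93 CPM with 17.5 CPM. Library 20 held 22.8 and 111 CPM with 746 CPM of Slc17a7, and library 23, from an Igf2enh-/- male, 17.5 and 91.7 CPM with 560 CPM. Across the 15 striatal libraries the correlation of log2 levels with the mean of the 12 cortical markers was 0.99 for Vip (Spearman's rho 1.00) and 0.98 for Cck (rho 0.98), with permutation p of 1e-05, the smallest 100000 resamples can give. Both were 0.97 or more without the 2 libraries farthest from the median, and 0.94 or more within each genotype.

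The other members lay between. Cort (r = 0.90, rho = 0.95), Sst (0.87 and 0.87), Cartpt (0.79 and 0.86), Crh (0.78 and 0.78) and Npy (0.77 and 0.80) rose with the cortical markers, and Penk (-0.84 and -0.93) and Tac1 (-0.80 and -0.95) went down as they rose. Permutation p adjusted over the 10 members were at most 0.000989 for r and 0.0013 for rho in these. Pdyn showed r = -0.27 and rho = -0.30 (adjusted permutation p = 0.325 and 0.277). Without libraries 15, 20 and 22, r kept its sign for all 10 and 9 still passed. Within genotypes, Npy gave 0.94 in wild-type but 0.38 in Igf2enh-/- libraries (exact permutation p = 0.353), and Cartpt 0.93 and 0.67 (exact permutation p = 0.0664 for the latter).

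The slopes, on log2(CPM + 0.5), differed among the members. The 0.5 CPM added flattens the slope of genes near that level, such as Crh and Cort. Per unit of log2 cortical marker mean, Vip rose by 1.10 and Cck by 1.07 log2 units, Cartpt by 0.52, Crh by 0.51, Cort by 0.29, Npy by 0.18 and Sst by 0.15. As a ratio of counts within a library, there were 13.9 to 33.8 Cck counts per 100 Slc17a7 counts in striatum and 15.8 to 22.2 in frontal cortex, and the ratio for Vip was 1.59 to 4.01 and 3.22 to 4.77. For Sst the ratio was 7.28 to 11 per 100 in frontal cortex and 18.9 to 664 in striatum, and for Npy 2.95 to 4.18 and 7.93 to 219, without overlap. The denominator ran from 1488 to 1691 CPM in frontal cortex and from 13.7 to 746 CPM in striatum. A gene of similar level in both regions therefore gives such a gap by construction. In library 22, where Vip was at 16 counts, Sst still stood at 90.8 CPM and Npy at 29.9 CPM. How much cortical tissue each striatal piece held was not tested. With the mean of the cortical markers as a further term, chosen after the data were seen, 0 of the 7 members were called for genotype in striatum, and the standard error of Cck went from 0.577 to 0.128 with a log2 fold change of 0.19 in place of -0.22 (edgeR adjusted p = 0.487).

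**Figure D4:**
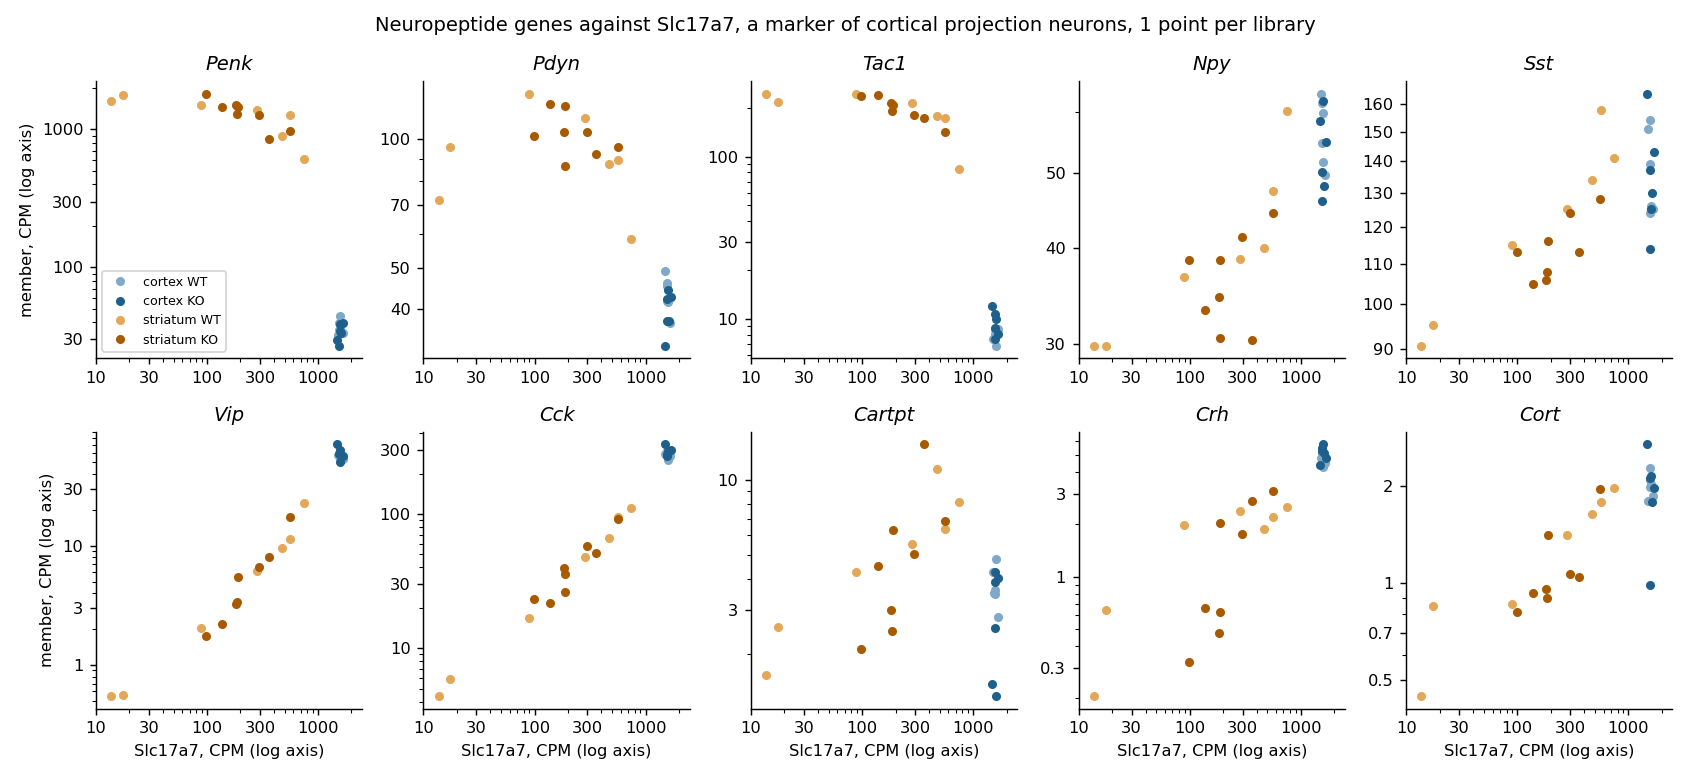
CPM of each neuropeptide gene against that of Slc17a7, a cortical projection neuron marker, in the 27 libraries (both axes log), 1 point per library. Vip and Cck climb from the striatal libraries of 13.7 CPM Slc17a7 toward the cortical cluster above 1488 CPM, Sst and Npy stay at 90.8 and 29.9 CPM or more in all striatal libraries, and Penk and Tac1 fall with rising Slc17a7.

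The levels of 6 pairs of members were then compared across libraries. In striatum Penk and Tac1, made by the different classes of medium spiny neuron, were correlated over the 15 libraries (r = 0.89, rho = 0.91, adjusted permutation p = 0.00018 and 0.00012, r = 0.81 without the 2 farthest libraries). Sst with Npy gave r = 0.85 and rho = 0.92 (adjusted permutation p = 0.0004 and 0.00012), Sst with Cort 0.87 and 0.89 (0.00018 and 0.00016), and Vip with Crh 0.82 and 0.80 (0.00057 and 0.00162). These 4 stayed at 0.76 or more without the 2 farthest libraries and at 0.75 or more within each genotype. In each of the 4 pairs both members also followed the cortical marker mean in the same direction, as given above. The part of that shared relation in the pairs was not tested. Pdyn with Tac1 (r = 0.68) and Penk with Pdyn (r = 0.58) were less stable. Without libraries 20 and 24 the former was 0.16, and without libraries 20 and 19 the latter was 0.19, while without libraries 15, 20 and 22 they were 0.65 (adjusted permutation p = 0.0362) and 0.48 (adjusted permutation p = 0.148). In frontal cortex Pdyn and Tac1 ran against each other (r = -0.75, adjusted permutation p = 0.0112; rho = -0.52, adjusted permutation p = 0.175; r = -0.54 without libraries 1 and 4), with -0.26 in wild-type and -0.89 in Igf2enh-/- libraries. Sst with Cort there gave r = 0.66 but 0.08 without libraries 1 and 7, and Sst with Npy gave 0.65 and 0.54. The adjusted permutation p of rho was 0.236 and 0.111 for these pairs. The remaining pairs in frontal cortex were Penk with Tac1 (r = -0.10), Vip with Crh (r = -0.07) and Penk with Pdyn (r = 0.34). Their adjusted permutation p of r was 0.835, 0.844 and 0.335.

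The genes whose residual pattern came closest to each member were, for Penk in striatum, Pde1b, Adora2a and Cacng4 (r = 0.99 each over 15 libraries), and for Tac1 Six3, Dlx6 and Meis2 (0.98 each). For Cck in striatum they were Neurod2, Vxn and Rtn4r (0.99 each), and for Sst Tgfb3, Crhbp and C1ql3 (0.96, 0.96 and 0.95). Crhbp, the binding protein of corticotropin-releasing hormone, also led the list of Sst in frontal cortex (r = 0.94 over 12 libraries), followed by B9d2 and Gpr83. Npy in striatum was closest to E2f1, Twf2 and Vipr1 (0.95, 0.94 and 0.94), Pdyn to Nudt11, Prmt5 and Rgs14 (0.93, 0.92 and 0.91) and Cartpt to Plxna3, Gdap1l1 and Pnma3 (0.95 each). In frontal cortex, with fewer libraries, Cartpt was closest to Brinp3 and Id2 (0.96 each) and Mknk1 (0.94), and Pdyn to Cdk16 and Gm13629 (0.98 each) and Rnd1 (0.96). These genes were picked as the highest r among all genes compared, over only 12 or 15 libraries. Such a choice can return high r for unrelated genes too, and no r here was tested against it. The lists are therefore a description, and the part of tissue makeup in the striatal ones was not tested.

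The 250 bases before the start sites of the members were searched for the core of the cAMP response element, TGACG, on both strands. RefSeq windows (GRCm38.p6), 9 in all, were found for 8 of the 10 genes, with a further window for Pdyn and none for Penk and Crh. The 5 letters were present in Sst, Cartpt, Cort, Tac1, Cck and Vip and not in Npy or Pdyn, and in 17.8% of all 32851 windows. The whole palindrome TGACGTCA, which holds the 5 letters on both strands, was present in Sst, where it opens 48 bases before the start, and in Cartpt, at 112 bases, and in 1.55% of all windows. The Cartpt window, chromosome 13 from 99900634 to 99900933, lies inside the gene span given above, so its start is an internal start site. Tac1 held a further match 197 bases before its start. The 130 bases before the start of each of these 6 genes are printed with the matching letters in capitals, because this element in the somatostatin promoter is the classic site of the factor CREB.
Sst, chr16:23890845-23890974, minus strand: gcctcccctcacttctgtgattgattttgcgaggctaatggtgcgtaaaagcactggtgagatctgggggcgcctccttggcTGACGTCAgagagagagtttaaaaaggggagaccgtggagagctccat
Cartpt, chr13:99900684-99900813, minus strand: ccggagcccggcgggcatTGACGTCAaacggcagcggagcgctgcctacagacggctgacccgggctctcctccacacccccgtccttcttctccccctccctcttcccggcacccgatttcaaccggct
Vip, chr10:5639088-5639217, plus strand: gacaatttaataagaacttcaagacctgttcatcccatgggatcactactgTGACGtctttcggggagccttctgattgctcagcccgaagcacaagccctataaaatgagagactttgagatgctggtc
Tac1, chr6:7554931-7555060, plus strand: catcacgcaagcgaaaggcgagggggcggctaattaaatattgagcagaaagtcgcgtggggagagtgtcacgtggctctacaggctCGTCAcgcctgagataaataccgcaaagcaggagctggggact
Cck, chr9:121495695-121495824, minus strand: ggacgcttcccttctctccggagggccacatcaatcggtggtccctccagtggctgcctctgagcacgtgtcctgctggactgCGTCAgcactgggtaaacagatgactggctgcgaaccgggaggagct
Cort, chr4:149126764-149126893, minus strand: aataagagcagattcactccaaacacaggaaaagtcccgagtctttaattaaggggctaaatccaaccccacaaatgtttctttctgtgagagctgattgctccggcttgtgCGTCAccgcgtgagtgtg
The letters are a description of these windows, and the genes that hold them differed in direction between regions, with Tac1 higher in striatum and Vip, Cck and Cort lower. Any part of the element in the levels of the members was not tested.

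Genes that act on or beside the peptides were listed by role. Of the 16 genes of peptide processing and secretion, 2 were called higher and 11 lower in striatum of wild-type mice (median log2 fold change -0.28, against 0.01 over all genes tested). The background for this and the following lists is again 33.9% of all genes higher and 33.6% lower, 67.5% in all, against which 13 of 16 here, 5 of 7 peptidases, 17 of 20 receptors and 12 of 14 interneuron markers were called. Pcsk1, a prohormone convertase, fell by 1.55 on the log2 scale, from 75 to 25.8 CPM, and the vesicle priming genes Cadps2 (-1.73) and Cadps (379 to 191 CPM) were lower, while Scg2, a granin, and Qpct were higher by 0.43 and 0.56. Of the 7 peptidases, 3 were higher and 2 lower. Mme, the enkephalin-cleaving neprilysin, was higher by 3.41, at 119 against 11.3 CPM in wild-type mice, and Ece2 and Ece1 by 0.62 and 0.16, whereas Nln (-0.20) and Thop1 (-0.12) were lower.

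Of the 23 genes of receptors and the binding protein, 20 were tested between regions, with 7 higher and 10 lower. The receptor of substance P, Tacr1, was higher in striatum by 4.46 (45.2 against 2.06 CPM), the dynorphin receptor Oprk1 by 3.72 (46.8 against 3.56 CPM) and the somatostatin receptor Sstr5 by 5.04 (11.8 against 0.359 CPM). The cholecystokinin receptor Cckbr (-2.17), Sstr3 (-2.06) and the corticotropin-releasing hormone receptor Crhr1 (-1.85) were lower. Of 29 other neuropeptide genes, 10 reached the mean of 1 CPM over all libraries that the test asked for, 2 higher and 5 lower. A gene at low level in a region could pass only through the other, as Nts, Trh and Sstr5 did through striatum and Grp through frontal cortex. The counts of these lists are therefore a description. Nts, neurotensin, was higher by 6.63 (8.67 against 0.0819 CPM) and Trh by 2.50, while Adcyap1, the PACAP precursor of the Vip family, was lower, with a log2 fold change of -3.63 (24.4 to 2 CPM), as were Grp (-3.57) and Nppc (-1.77). All these changes were called in edgeR, and in the same direction in Igf2enh-/- mice.

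Of 14 interneuron markers, 5 were higher in striatum of wild-type mice, led on the log2 scale by Chodl (1.82), which marks the long-range Sst and Nos1 cells, Gad2 (1.16) and Slc32a1, the latter pair being used by medium spiny neurons as well. Another 7 were lower, led by Htr3a (-1.92), Pvalb (-1.36) and Lamp5 (-1.21).

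For genotype, 0 genes of these lists were called in either region. Among the 16 processing and secretion genes the median log2 fold change was 0.02 in frontal cortex and 0.0038 in striatum, with 3 and 2 genes at an unadjusted p under 0.05. Over all genes tested, 13.5% in frontal cortex and 10% in striatum had such a p, the background for the following lists as well. Among the receptors it was 0.06 over 16 genes and -0.01 over 17, with 4 and 0 at an unadjusted p under 0.05. The immediate-early genes, which respond to neuronal activity as several peptide genes do, were all 13 below 0 in both regions, with medians of -0.62 and -0.66 and 10 and 9 genes at an unadjusted p under 0.05, and 0 called. Other lists leaned with genotype too, with 0 called. The 9 oligodendrocyte markers were all below 0 in both regions (medians -0.19 and -0.31), 10 of 11 meningeal fibroblast markers were above 0 in frontal cortex (median 0.27), and the 6 cortical projection neuron markers tested in striatum were all below 0 (median -0.32). The medians of the members were -0.02 in frontal cortex and -0.06 in striatum. The part of neuronal activity or of other cell types in the values of the members was not tested.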

How the data were processed

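Gene counts were made by the authors from 75-base single-end reads of ribosome-depleted total RNA, and per the labels and the submitters' processing notes the tools were bcl2fastq 1.9.0, Trim Galore 0.5.0 and STAR 2.5.3a on GRCm38 with GENCODE vM15. The deposited values are raw counts per gene, in a table for each region. The strand setting of the counting is not given in the sources used here. The 10 members and all gene lists were chosen with earlier results of these data known.

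Counts were analysed in R 4.3.3 with edgeR 4.0.16 (TMM, quasi-likelihood F test, Benjamini-Hochberg adjustment over all genes tested), and tested on simulated counts first. Genotype and sex were terms in each region, with genes kept at 1 CPM in all libraries of the region. The region fit joined all 27 libraries, with genes kept at a mean of 1 CPM. DESeq2 1.42.0 and limma 3.58.1 served as alternatives. Ratios and members under the filter were compared by exact permutation over libraries, correlations by 100000 permutations on log2(CPM + 0.5), with scipy 1.17.1. Other genes are named by rule, up to 3 per list and direction by size of the region change in wild-type mice, and the 3 nearest patterns for each member. Replicates are separate mice as far as the labels show, and no pair of libraries agreed within sampling noise (the smallest chi-square per gene was 2.2). Start sites and promoters are from RefSeq on GRCm38.p6, exon lengths and coding sequences from GENCODE vM1. The total counts per library set the precision of low genes, where 1 CPM is about 24.9 counts in library 1.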

Additional observations from a re-analysis of the deposited data

Results flagged for a closer look

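The level of Tac1 in wild-type striatum had 1 library far from the others. Library 20 held 83.5 CPM where the other 6 ran from 173 to 244 CPM, and its gap to the nearest was 0.679 of the whole range, above Dixon's 95% critical value for 7 libraries. The same library held the lowest Penk (613 CPM) and Pdyn (58.2 CPM), and the highest Vip (22.8 CPM) and Slc17a7 (746 CPM), of the wild-type striatal libraries, and the part of its tissue makeup in these levels was not tested. Chance gives about 1 such case in 20 checks, and 40 were made.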

How the results depend on the processing

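No paired analysis was possible because library numbers are unique across groups, and a number therefore ties no library of one group to a library of another. Genotype calls of members stayed at 0 in both regions under every alternative run. Members called between regions in wild-type mice fell to 5, of the 7 tested, when 1 CPM was asked of all 27 libraries, which leaves fewer genes to test. Leaving out each library gave 7 to 9 calls in wild-type and 8 to 10 in Igf2enh-/- mice, and no member changed direction between regions under any alternative.

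Uncalled genotype changes in striatum changed sign around 0. Penk, 0.0043 in the fit reported, was -0.0036 with filterByExpr, -0.00054 with no filter, and -0.02 both without libraries 15, 20 and 22 and with a term for library numbers above 20. Without those 3 libraries Pdyn was -0.0046 and Tac1 -0.06. Vip, compared by permutation above, was -0.36 with filterByExpr and -0.35 with no filter. Cck was 0.51 with limma-voom, 0.01 with the library number term and 0.19 with the cortical marker term, which was chosen after seeing the data, and Cartpt was 0.07 with limma-voom. Leaving out single libraries gave -0.10 to 0.10 for Penk, -0.10 to 0.10 for Tac1, -0.45 to 0.18 for Cck and -0.33 to 0.12 for Cartpt in striatum, and -0.07 to 0.02 for Sst in frontal cortex. Cort in frontal cortex, compared by permutation in the report, was 0.09 without library 7 and -0.05 with filterByExpr or no filter. The ratio of Pdyn to Penk in frontal cortex ran from -0.09 to 0.06, and in striatum that of Tac1 to Penk from -0.05 to 0.08 and that of Sst to Npy from -0.03 to 0.06. The cause of these shifts was not tested. For Vip and Cck in striatum, means of CPM and means of log2(CPM + 0.5) differed in direction. Mean CPM was lower in Igf2enh-/- than in wild-type mice, at 6.02 against 7.56 for Vip and 43.3 against 49.7 for Cck. Mean log2 levels were higher, at 2.39 against 2.24 for Vip and 5.29 against 4.88 for Cck. The ratio of Tac1 to Penk in frontal cortex reached p = 0.0584 (exact permutation) without library 6, 10 or 12, and that of Sst to Npy p = 0.00866 (exact permutation, log2 difference 0.14) without library 5.

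Over all genes, the genotype calls ran in frontal cortex from 8 without library 10 to 99 without library 1 and reached 459 with no filter, against 53 as reported, 232 by the likelihood ratio test and 247 by DESeq2. In striatum they were 5 as reported, 13 without libraries 15, 20 and 22, 71 with the cortical marker term, 56 by the likelihood ratio test, 112 by DESeq2 and 3 by limma-voom. Counts of Crh and Cort in striatum, as low as 6 and 13, limit what can be said of these genes.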
